A study of Mus musculus with 9 samples.

Results

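The stretches of mouse chromosome 13 described here carry the Hist1 cluster of replication-dependent histone genes together with a dense group of tRNA genes. They were taken as all StyI restriction fragments whose midpoint lies between positions 21200000 and 22150000 (block A, 950 kb) or between 23300000 and 23900000 (block B, 600 kb) of the mm9 build. The rule found 1891 fragments among the 3053721 of the genome, 1129 in block A and 762 in block B. The block limits had been drawn with the HRS, Loop and input counts of these libraries known, so the levels and calls inside the blocks are given as a description and carry no test.

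The cells were mouse embryonic stem cells of the line E14Tg2a (strain 129P2), kept in medium with LIF. In the high-salt recovered sequence (HRS) assay, nuclei are extracted with salt and their DNA is cut with StyI, which separates the DNA kept with the insoluble nuclear remnant (HRS) from the DNA that is released (Loop). Libraries of 3 HRS fractions, 3 Loop fractions and 3 samples of input genomic DNA, titled D0, D12 and D21, were compared. All 9 share the line, the strain and the digest; the labels do not explain the input titles or say whether replicates came from separate cultures, so the spread between libraries may be technical. Totals were 39.1 to 52.5 M counts in HRS, 58.7 to 62.9 M in Loop and 55.2 to 62.2 M in input.

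As background, replication-dependent histone genes supply the core histones H2A, H2B, H3 and H4 and the linker histone H1 that package newly copied DNA in S phase. They lie in clusters, lack introns, and their transcripts end in a stem-loop in place of a poly(A) tail. Their transcription and 3' end processing are concentrated in the histone locus body, a nuclear body that assembles on the gene clusters. tRNA genes are short and are transcribed by RNA polymerase III from promoter elements inside the gene, the A box and the B box. Mouse embryonic stem cells divide fast and spend much of the cycle in S phase.

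In the RefSeq gene order of GRCm38.p6, the Hist1 genes fall into 2 stretches on either side of a long row of Vmn1r genes, which encode vomeronasal receptors. The outer limits were set after the olfactory receptor (Olfr) gene Olfr1368 and before Scgn, and the gene counts depend on them. The stretch before the Vmn1r genes listed 124 genes, of which 24 were histone genes (23 protein-coding), 59 were tRNA genes and 9 were Olfr genes. Its histone genes were 1 of H1, 8 of H2A (with the pseudogene H2ac14), 8 of H2B, 2 of H3 and 5 of H4. The stretch after the Vmn1r genes listed 103 genes, of which 32 were histone genes (31 protein-coding) and 45 were tRNA genes. Its histone genes were 5 of H1, 7 of H2A (with the pseudogene H2ac5-ps), 7 of H2B, 7 of H3 and 6 of H4. Between the 2 stretches stood 87 genes, 75 of them Vmn1r genes. Together the stretches held 104 of the 105 tRNA genes of chromosome 13. The order in the first stretch ran from tRNA genes around Trim27 and the glutathione peroxidase genes Gpx5 and Gpx6, through zinc-finger genes (Zscan12, Zkscan3, Zkscan4, Zkscan8) and Olfr genes, to a first histone group from H2bc13 to the H2B gene H4bc24, tRNA genes around Zfp184 and Prss16, and a second histone group from H2ac12 to H2bc11. In the second stretch, tRNA genes around Zfp322a, Abt1 and the butyrophilin genes Btn1a1 and Btn2a2 came first, then histone genes from H4c8 to H1f1 with the iron-regulating gene Hfe among them, then Trim38, the Slc17a transporter genes and, apart from the rest, H2bc1 and H2ac1. An annotation of mm9 was not used here, so no gene was placed in a fragment or bin, and the name of the blocks could not be checked by position.

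The histone promoters are shown because they are the shared regulatory sequence of the genes that name the cluster, and because a StyI site decides where fragments end. RefSeq promoter sequences (GRCm38.p6) matched 51 of the 56 histone genes by gene identifier, in 52 promoters, and no tRNA gene by symbol. One gene per family is printed, the first by symbol among the genes inside the main groups (H2ac1 and H2bc1, which stand beyond Slc17a4, were passed over). Each line gives the 250 bases before the annotated start, 5' to 3' on the gene's strand, with GRCm38.p6 coordinates that cannot be set against the mm9 positions below. Capitals mark CCAAT in either orientation (CCAAT or ATTGG) and TATAAA.
H1f1 promoter, chr13:23763418-23763667, plus strand: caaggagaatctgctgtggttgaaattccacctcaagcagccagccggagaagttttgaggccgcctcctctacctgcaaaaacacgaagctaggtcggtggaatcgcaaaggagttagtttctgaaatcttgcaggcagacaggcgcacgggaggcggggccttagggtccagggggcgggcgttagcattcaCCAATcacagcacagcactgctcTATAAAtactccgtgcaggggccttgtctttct
H2ac10 promoter, chr13:23533625-23533874, plus strand: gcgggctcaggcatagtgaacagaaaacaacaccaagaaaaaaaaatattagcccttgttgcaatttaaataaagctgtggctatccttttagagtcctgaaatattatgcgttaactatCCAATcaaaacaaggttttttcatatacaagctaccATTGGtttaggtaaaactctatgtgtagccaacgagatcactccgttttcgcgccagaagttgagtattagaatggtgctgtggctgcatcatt
H2bc11 promoter, chr13:22042948-22043197, plus strand: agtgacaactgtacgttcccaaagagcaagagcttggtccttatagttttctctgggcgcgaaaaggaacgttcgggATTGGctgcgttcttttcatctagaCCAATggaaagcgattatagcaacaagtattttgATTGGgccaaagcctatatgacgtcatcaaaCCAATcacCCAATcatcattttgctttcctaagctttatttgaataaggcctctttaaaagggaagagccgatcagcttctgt
H3c10 promoter, chr13:21717378-21717627, plus strand: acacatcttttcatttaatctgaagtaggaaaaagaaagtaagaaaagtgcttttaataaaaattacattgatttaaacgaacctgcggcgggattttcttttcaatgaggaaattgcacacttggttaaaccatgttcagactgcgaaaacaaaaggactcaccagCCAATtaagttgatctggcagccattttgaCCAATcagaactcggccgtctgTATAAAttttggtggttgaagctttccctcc
H4c1 promoter, chr13:23761250-23761499, minus strand: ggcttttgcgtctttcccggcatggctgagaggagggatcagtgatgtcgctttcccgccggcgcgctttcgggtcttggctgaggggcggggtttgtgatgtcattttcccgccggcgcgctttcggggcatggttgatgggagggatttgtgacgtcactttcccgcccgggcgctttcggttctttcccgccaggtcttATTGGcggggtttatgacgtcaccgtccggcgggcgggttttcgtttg

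The H2bc11 promoter, of an H2B gene, held 5 CCAAT letters in these 250 bases, against 2 in H2ac10 and H3c10 and 1 in H1f1 and H4c1. TATAAA stood in the printed promoters of H1f1 and H3c10. Over the 52 histone promoters, read on both strands, CCAAT was in 44 (84.6%, against 33.8% of 32851 mouse promoters of the same length) and TATAAA in 26 (50.0%, against 12.4%). By family, CCAAT was in 6 of 6 H1, 13 of 13 H2A, 15 of 15 H2B, 7 of 7 H3 and 3 of 11 H4 promoters. The octamer ATTTGCAT, in the letters recognised by POU factors such as Oct1, was in 11 of the 52 (against 1.60% of all promoters), 5 of 13 for H2A and 6 of 15 for H2B. A StyI site (CC, then a pair of A or T, then GG) was in 2 of the 52 (3.85%, against 29.2% of all). H2A and H2B genes often share 1 stretch between their starts, so these promoters overlap and are not independent, and a match to letters is not a bound site.

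Counts over both blocks were highest in HRS. Block A summed to 927, 858 and 966 CPM (counts scaled to a library of 1 M counts) in HRS replicates 1, 2 and 3, against 323, 318 and 302 CPM in Loop and 362, 333 and 336 CPM in the D0, D12 and D21 inputs. The HRS mean of 917 ± 54.6 CPM was 2.92-fold the Loop mean of 314 ± 11.1 and 2.67-fold the input mean of 343 ± 16.0 (SD, n = 3 each). Every HRS library lay above every Loop and input library.

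Block B stood further apart. It summed to 698, 652 and 756 CPM in HRS, against 183, 174 and 178 CPM in Loop and 219, 212 and 208 CPM in input. The HRS mean of 702 ± 52.1 CPM was 3.94-fold the Loop mean of 178 ± 4.73 and 3.30-fold the input mean of 213 ± 5.80 (SD, n = 3 each). The Wilson 95% interval of a block's count was at most 1.92% of the value to either side, so counting error, the only error it covers, was smaller than the spread between HRS libraries.

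The 1150 kb segment between the blocks summed lower in HRS than in Loop, with a ratio that differed by fragment length. It summed to 229 ± 4.89 CPM in HRS (SD, n = 3 each), against 272 ± 5.13 for Loop and 252 ± 5.50 for input. On library totals HRS was 0.843-fold Loop there and 0.909-fold input, with no overlap between the HRS and Loop libraries. The rest of chromosome 13 gave 0.957-fold and 0.942-fold for the same ratios. By fragment length, HRS over Loop in the segment was 0.476 up to 200 bp and 1.02 above 200 and up to 500 bp. It was 1.34 above 500 and up to 1000 bp and 1.44 above 1000 bp. Divided by the genome's ratio of the same class, these were 0.819, 0.836, 0.832 and 0.823.

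**Figure D1:**
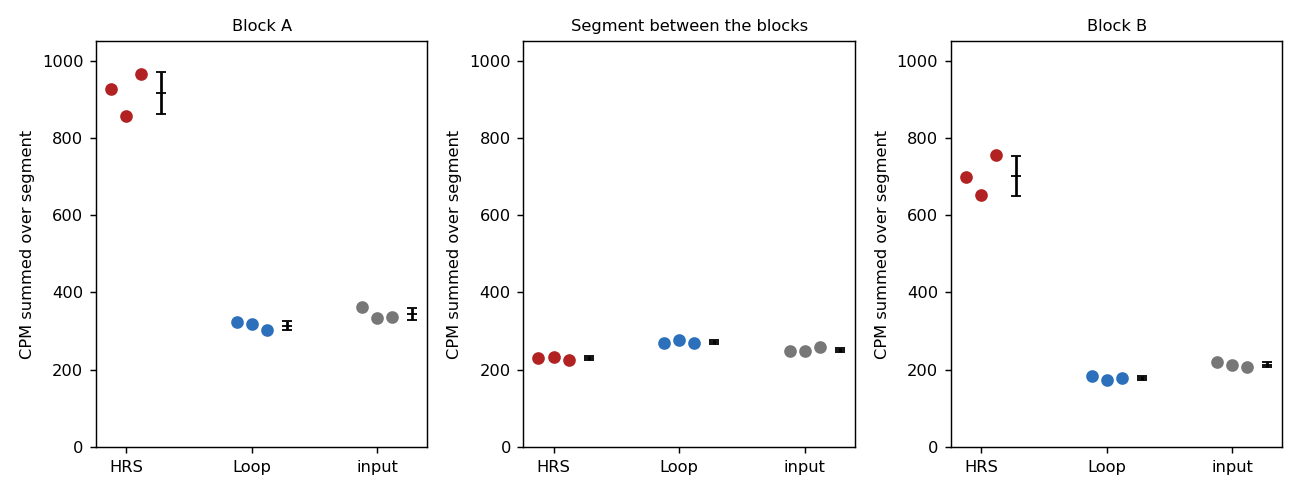
CPM summed over block A, the segment between the blocks and block B; each point is a library (HRS, Loop, input from left to right) and the bars beside them are the mean ± SD of 3 libraries. HRS libraries sit at 858 to 966 CPM in block A and 652 to 756 CPM in block B, above all Loop and input libraries, and below all Loop libraries in the segment between.

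Between Loop and input the block sums differed less, and in block A the sign depended on the scaling. On library totals Loop was 0.916-fold input in block A (log2 −0.13) and 0.837-fold in block B (log2 −0.26). With the TMM factors of the genome-wide fit the log2 ratios were 0.01 in block A and −0.12 in block B. Library totals shifted the median of all 10 kb bins to −0.15 on the log2 scale for Loop over input and for HRS over input, against −0.02 and −0.03 with TMM; the block sums of HRS over input were 1.55 and 1.86 with TMM, against 1.42 and 1.72 on library totals.

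The blocks were then followed in 10 kb bins in a fit over the whole genome (edgeR quasi-likelihood, TMM, Benjamini-Hochberg adjusted p of 0.05). In block A, 67 of 92 bins tested were called higher in HRS than in Loop and 2 lower; 3 of its 95 bins had too few counts. In block B, 53 of 60 bins were called higher and 0 lower. Over the genome 17.8% of 245825 bins were called higher and 20.4% lower, and the median log2 ratio was 0.01, against medians of 1.26 in block A and 1.65 in block B. A ratio above 2-fold was found in 53 bins of block A and 44 of block B (6.47% of all bins), above 4-fold in 33 and 24 (0.408%), and above 8-fold in 8 and 11 (0.0321%). The contrast is the one the blocks were drawn on, so these shares describe them and nothing is read from them. In the segment between the blocks, 3 of 103 bins tested were called higher in HRS and 29 lower, with a median log2 ratio of −0.18. With fragment length corrected, 2 of these bins were called higher and 7 lower, and the median was −0.15. Over the genome the corrected fit called 15.0% higher and 8.43% lower.

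Block A was uneven along its length. The call higher in HRS held without a break from 21240001 to 21400000 (160 kb), where HRS averaged 258 ± 32.9 CPM, against 45.2 ± 2.69 CPM in Loop and 62.3 ± 3.60 CPM in input. It held again from 21410001 to 21480000 (70 kb; 45.2 ± 4.89 CPM in HRS, against 21.9 ± 0.855 in Loop), a ratio of 2.06 after the 5.72 of the run before it. Beyond this point only runs of 10 to 20 kb were called until 21790001. In the 4 windows of 50 kb from 21550001 to 21750000 the ratio of HRS over Loop was 0.995, 1.14, 0.950 and 1.02, and HRS and Loop libraries overlapped in each.

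The far part of block A carried the higher HRS counts again. From 21790001 to 21890000 (100 kb) HRS averaged 121 ± 6.77 CPM, against 30.1 ± 1.09 in Loop and 35.4 ± 2.34 in input. From 21910001 to the block's end at 22150000 (240 kb) HRS averaged 326 ± 17.2 CPM, against 73.6 ± 6.62 for Loop and 86.3 ± 3.18 for input, a ratio of 4.43 over Loop. A stretch of 38 StyI fragments over 23.1 kb (21888934 to 21912016) with no count in any of the 9 libraries spanned the gap between these 2 runs and reached into the bins on both sides.

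Block B was a single run of calls, 53 bins from 23340001 to 23870000 (530 kb), with 676 ± 49.8 CPM in HRS, against 153 ± 3.84 in Loop and 189 ± 5.98 in input. Only its first 50 kb window, from 23300001, showed no separation, at 7.93 ± 0.968 CPM in HRS, against 7.84 ± 0.265 in Loop and 7.06 ± 0.772 in input. The window from 23500001 to 23550000 was the highest in level and ratio, with 137, 128 and 178 CPM in HRS, against 14.1, 12.1 and 13.6 in Loop and 24.7, 22.6 and 23.4 in input. That is an 11.1-fold ratio over Loop and 6.26-fold over input. The window from 23600001 followed in level, with 103 ± 3.11 CPM in HRS, against 16.0 ± 0.246 in Loop. The window from 23350001 reached a ratio of 10.5 with HRS replicate 3 at 77.9 CPM and the other HRS libraries at 37.6 CPM or less, against 4.95, 5.36 and 3.61 CPM in Loop; without HRS replicate 3 the HRS mean was 33.8 CPM and the ratio 7.28. Among the windows wholly inside the run, the lowest ratios were in those from 23700001 (2.17) and 23750001 (2.12).

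**Figure D2:**
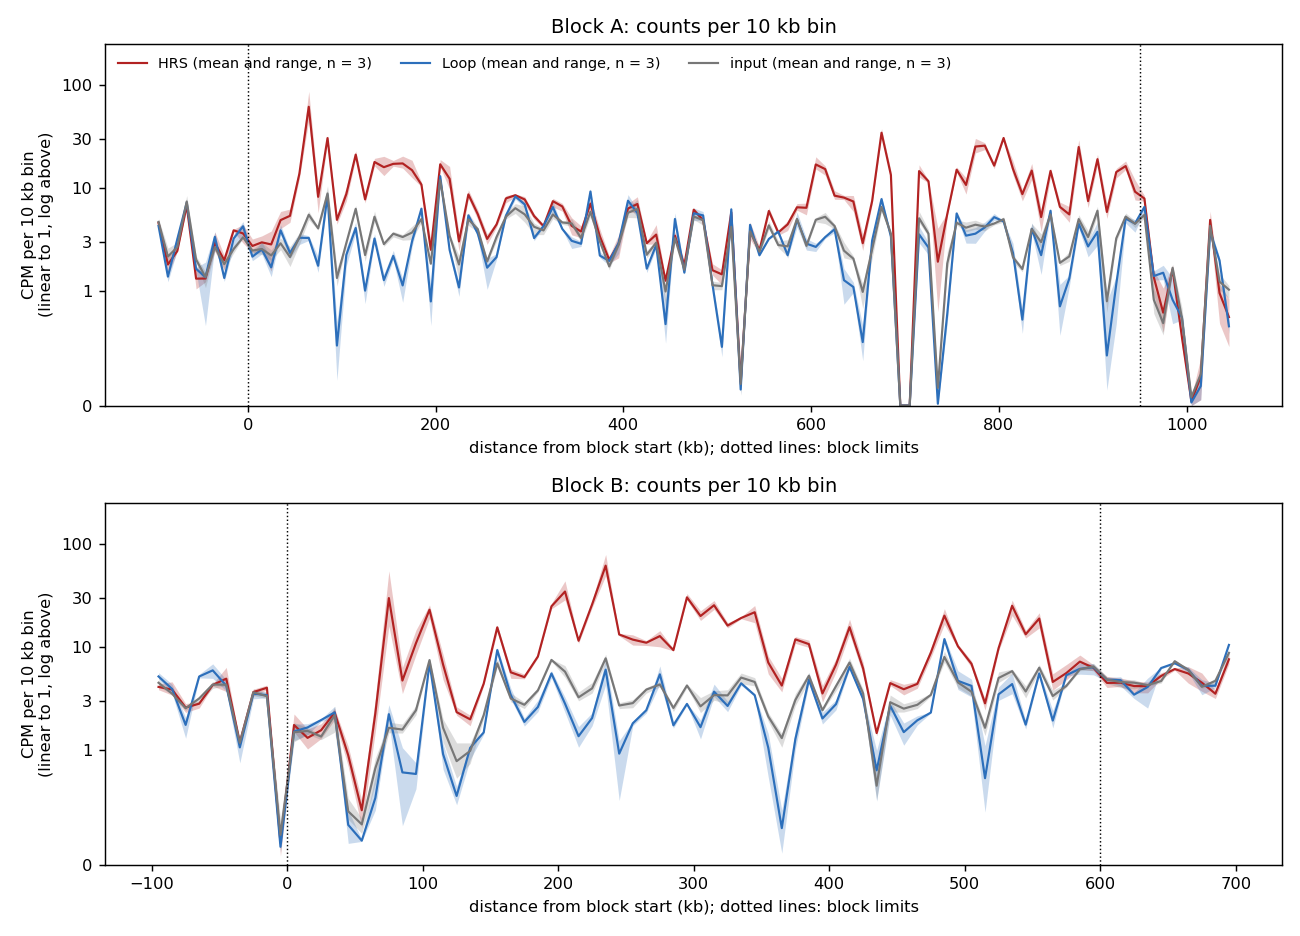
Mean CPM per 10 kb bin (lines) and range over 3 libraries (shading) in HRS, Loop and input along block A (top) and block B (bottom), against distance from the block start in kb; the vertical axis is linear to 1 CPM and logarithmic above. HRS lies above the other 2 groups in both arms of block A and through most of block B, and runs with them in the middle of block A and outside the dotted block limits.

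At the block limits the ratios lay closer to those of the genome, apart from the last bin of block A. The first bin of block A (21200001) had a log2 ratio of HRS over Loop of 0.32 ± 0.19 (SE) and the bin before it −0.26 ± 0.17. The last bin of block A (22140001) had 1.01 ± 0.18 and the next bin 0.25 ± 0.13. For block B the first bin inside (23300001) had 0.18 ± 0.24 and the bin outside 0.30 ± 0.54, the outer bin resting on 12, 14 and 3 counts in HRS. Its last bin (23890001) had −0.04 ± 0.14 and the bin after it −0.13 ± 0.14. The block B limits therefore lay outside the region of higher HRS counts at both ends.

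The bins with the highest ratios lay in both arms of block A and at several places in block B. In block A the bin at 21260001 held 2671, 2403 and 3384 counts in HRS, against 195, 207 and 202 in Loop and 371, 318 and 272 in input, a log2 ratio of 4.22 ± 0.28 over Loop. The bins at 21360001 (3.92 ± 0.19), 21340001 (3.63 ± 0.20) and 22110001 (3.70 ± 0.33) followed. With fragment length corrected these 4 ratios were 4.11, 3.34, 3.12 and 3.28. The value at 22110001 was 4.80 without Loop replicate 2, which held 57 of the Loop counts there, against 17 and 8 in the others.

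The highest fitted ratio, 6.69 at 21930001, came from 1 counted fragment among the bin's 13 StyI fragments. That fragment (21938727 to 21940055, 1328 bp) had 46, 43 and 159 counts in HRS, against 1, 2 and 0 in Loop and 12, 7 and 8 in input. With 3 Loop counts in all, the ratio of pooled CPM was 107, with an exact 95% interval of 36.1 to 521 for counting error alone. Without HRS replicate 3 the fitted log2 ratio was 5.46. The bin passed the count filter through its HRS libraries and had too few counts to be tested for Loop over input. It is among the 8 bins of block A above 8-fold.

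In block B the bins at 23390001 (log2 3.77 ± 0.22), 23370001 (3.75 ± 0.37), 23540001 (3.75 ± 0.20), 23660001 (3.68 ± 0.29) and 23520001 (3.65 ± 0.19) led. With fragment length corrected, in the same order, they were 3.12, 4.47, 3.16, 3.03 and 3.37, so the order among them depended on that correction. The bin at 23520001 had 24.2, 25.5 and 28.5 CPM in HRS, against 2.31, 1.73 and 2.13 in Loop and 4.55, 3.82 and 3.59 in input, with little spread among HRS libraries. The bin at 23370001 had 18.8, 16.1 and 55.1 CPM in HRS, against 2.05, 2.77 and 1.91 in Loop. A single 99 bp fragment gave 83.9% of the counts of that bin over the 9 libraries, and its log2 ratio was 2.87 without HRS replicate 3.

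The lowest ratios of block A were in its middle. The bin at 21650001 held 197, 186 and 117 counts in HRS, against 314, 361 and 252 in Loop and 200, 195 and 172 in input (log2 of HRS over Loop −0.56 ± 0.15, called lower). The bin at 21560001 had 6.19, 7.05 and 7.94 CPM in HRS, against 8.98, 9.82 and 8.96 in Loop and 5.97, 5.27 and 6.41 in input (−0.41 ± 0.15, called lower). In both bins the Loop libraries stood above the inputs, at log2 0.75 and 0.79. With fragment length corrected these were 0.22 and −0.08, and neither was called. The call at 21560001 was lost when any library other than HRS replicate 3 was left out, and its ratio was 0.37 after correction for fragment length; the ratio at 21650001 was then −0.01.

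**Figure D3:**
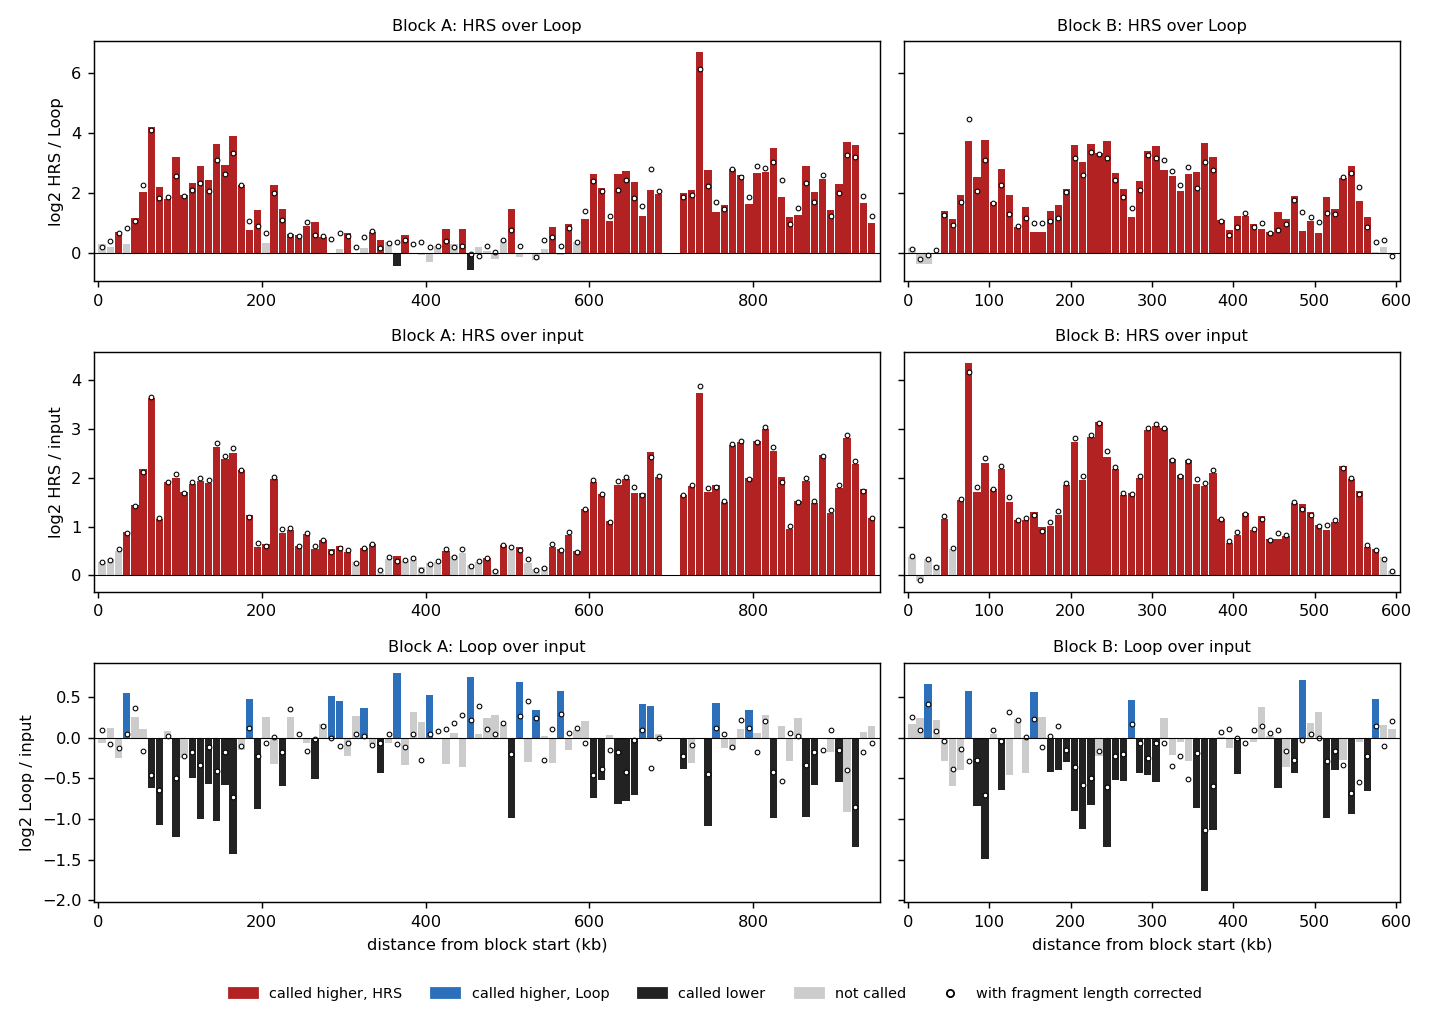
Fitted log2 ratio per 10 kb bin (bars) along block A (left) and block B (right) for HRS over Loop, HRS over input and Loop over input, from top to bottom; bar colour gives the call at an adjusted p of 0.05 and open circles the ratio after correction for fragment length. Calls for HRS are nearly all upward, while the Loop over input bars shrink toward 0 once length is corrected.

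Both blocks were also higher in HRS than in input. This comparison shares its HRS libraries with the one above and is no separate evidence. In block A 73 of 93 bins tested were called higher in HRS than in input and 0 lower, and in block B 53 of 60 and 0 lower, against 15.2% higher and 9.16% lower over the genome. On library totals alone the genome split was 28924 higher to 43162 lower, against 37436 to 22607 with TMM. The median log2 ratio was 1.17 in block A and 1.48 in block B, against −0.03 over all bins. In the segment between the blocks it was −0.04, with 3 of 104 bins tested called higher and 2 lower. The bin at 23370001 led, at log2 4.35 ± 0.39 (3.50 without HRS replicate 3), followed in block A by 21930001 (3.73 ± 0.59, and 2.55 without that library) and 21260001 (3.63 ± 0.28). Here too the bin at 21930001 passed the count filter through its HRS libraries. In the middle of block A the ratios of HRS over input stayed small, with 1.14, 1.15, 1.10 and 1.17 in the 4 windows from 21550001 to 21750000.

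Loop against input showed calls in both directions. In block A 15 of 92 bins tested were called higher in Loop and 26 lower, and in block B 6 of 60 higher and 25 lower, against 21.5% higher and 18.0% lower over the genome. Without the D0 input the count of lower bins in block B was 14, against 28493 of 247157 bins over the genome. Among the named bins the lowest ratio was at 23660001, with 0.382, 0.477 and 0.102 CPM in Loop, against 1.42, 1.45 and 1.07 in input (log2 −1.89 ± 0.33, and −1.13 with fragment length corrected). Both the Loop and the input libraries are shared with the other comparisons.

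Fragment length moved with these Loop values. Over the genome Loop held relatively more of the shortest fragments and fewer long ones than input (1.97-fold for fragments up to 200 bp and 0.533-fold above 1000 bp), and the blocks followed at 1.86-fold and 0.441-fold. When each bin was corrected for the lengths of its fragments, Loop over input gave 0 higher and 4 lower calls in block A and likewise 0 and 4 in block B, against 0.267% higher and 0.0786% lower over the genome. For HRS over Loop the corrected fit called 70 bins of block A and 53 of block B higher and 0 lower in either (15.0% higher and 8.43% lower over the genome), with medians of 1.24 and 1.36. For HRS over input the corrected counts were 73 and 53 higher and 0 lower (15.5% and 9.72% over the genome).

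In every length class both HRS ratios stood higher in the blocks than in the genome. For fragments up to 200 bp, both blocks together summed to 446, 392 and 480.0 CPM in HRS, against 232, 247 and 268 in Loop and 134, 137 and 130.3 in input. The HRS over Loop ratio was 1.76 in that class, 3.94 above 200 and up to 500 bp, 4.57 above 500 and up to 1000 bp and 6.73 above 1000 bp, against 0.581, 1.22, 1.61 and 1.75 over the genome. Divided by the genome's value, these ratios were 3.03, 3.23, 2.84 and 3.85, so most of the slope with length was that of the genome. HRS over input had little slope, with 3.29, 2.91, 2.46 and 2.97 in the 4 classes.

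**Figure D4:**
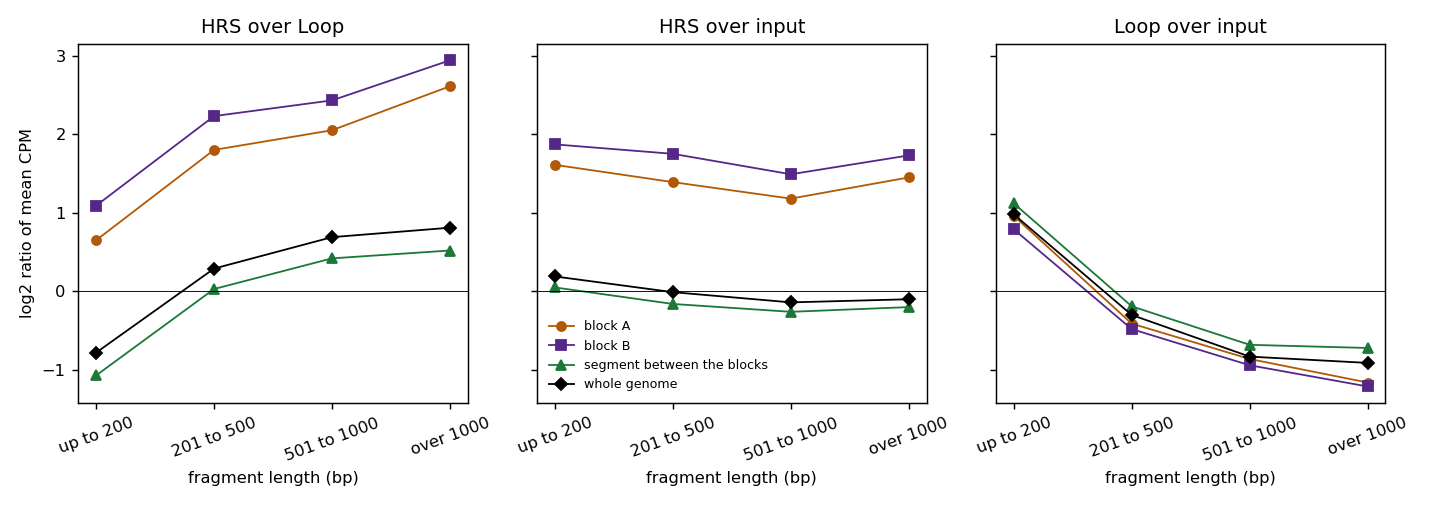
Log2 ratio of mean CPM by StyI fragment length class for block A, block B, the segment between them and the whole genome, for HRS over Loop, HRS over input and Loop over input (3 libraries per group, no error drawn). The block lines run above the genome line in both HRS panels in every class and close to it for Loop over input.

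At the level of single fragments most moved together. Among fragments with at least 30 counts over the 6 libraries compared, all 3 HRS libraries lay above all 3 Loop libraries for 571 of 847 in block A and 402 of 540 in block B, against 20.7% over the genome. All 3 lay below for 39 and 8 (13.4% over the genome). Over input the HRS libraries were all above for 502 of 861 and 364 of 540 fragments, against 9.93%. Loop libraries were all above input for 102 of 825 and 61 of 517 (13.7% over the genome) and all below for 329 and 208 (33.4%). The limit of 30 was set on the summed counts of both groups, so a fragment could pass it through the group where it was high. The counts are therefore a description. The fragments under 30 counts, and the 210 of block A and 186 of block B that were never counted, are outside these numbers.

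A few fragments held a large part of the HRS counts. The 10 fragments of block A with the most HRS counts made up 11.2% ± 3.13 of its counts in HRS (SD, n = 3 each), against 1.65% ± 0.174 in Loop and 2.10% ± 0.275 in input. In block B the 10 leading fragments made up 14.5% ± 5.16 in HRS, against 3.06% ± 0.259 in Loop and 3.59% ± 0.150 in input. They were picked by their HRS counts, so the higher share in HRS follows in part from the choice. The ratio without these fragments was not computed. For another set, the 10 fragments of each block with the most counts over all 9 libraries, leaving them out gave log2 ratios of HRS over Loop of 1.41 in block A and 1.84 in block B. With all fragments these were 1.54 and 1.98.

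In block A the leading 3 fragments lay close together inside the bin at 21260001. The fragment from 21264049 to 21264226 (177 bp) had 1063, 718 and 1151 counts in HRS, against 26, 16 and 26 in Loop and 34, 38 and 30 in input. The fragment from 21262052 to 21262504 (452 bp) had 510, 488 and 966 in HRS, against 7, 15 and 5 in Loop and 40, 43 and 26 in input, a ratio of 101 over Loop that was 66.2 without HRS replicate 3. Beside it, the fragment from 21261159 to 21262052 (893 bp) had 436, 659 and 828 in HRS, against 1, 9 and 1 in Loop and 47, 43 and 40 in input. Its ratio over Loop, 240.0, rested on 11 Loop counts and was 855 without Loop replicate 2, while its ratio over input was 18.8.

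In block B the 99 bp fragment from 23377126 to 23377225 led, with 785, 711 and 1966 counts in HRS, against 82, 142 and 86 in Loop and 45, 68 and 34 in input. Its ratio over Loop of 15.7 was 8.59 without HRS replicate 3. A pair of adjoining fragments, from 23503582 to 23504883 (1301 bp) and on to 23505308 (425 bp), had mean levels of 8.57 ± 1.74 and 14.7 ± 6.88 CPM in HRS, against 0.364 ± 0.185 and 0.489 ± 0.157 in Loop and 1.46 ± 0.121 and 0.631 ± 0.0395 in input. The fragment from 23538404 (345 bp) had 472, 318 and 862 counts in HRS, against 31, 12 and 29 in Loop; its ratio of 31.7 was 19.4 without HRS replicate 3. The 2078 bp fragment from 23608822 to 23610900 had 289, 427 and 484 counts in HRS, against 1, 9 and 0 in Loop and 23, 10 and 7 in input. Its ratio over Loop, 164, rested on 10 Loop counts and was 1096 without Loop replicate 2. HRS replicate 3, the library with the fewest counts, was the highest HRS library for all 10 of the fragments plotted by library.

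**Figure D5:**
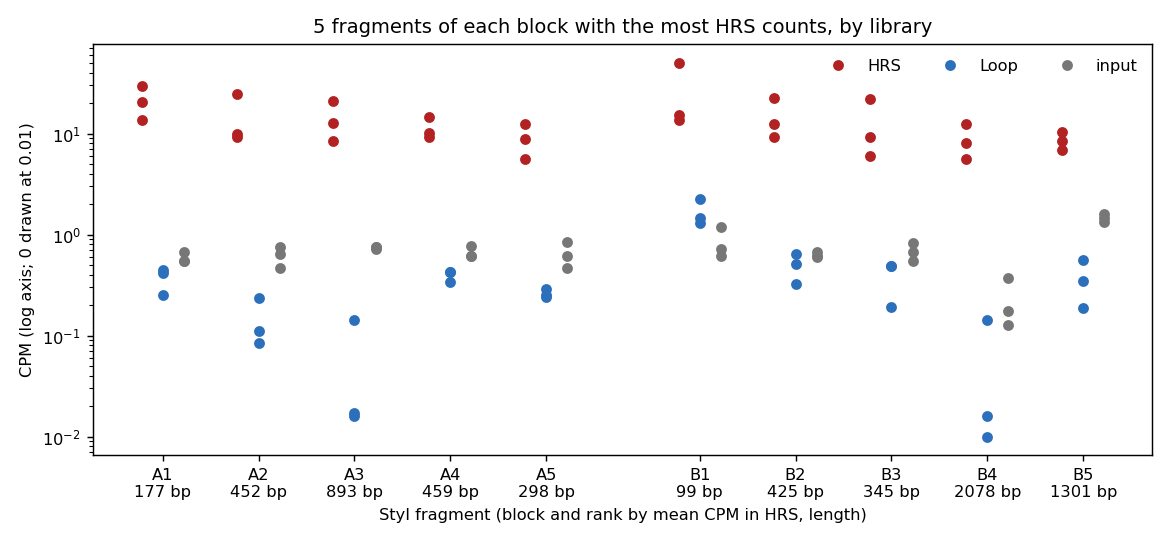
CPM in each library for the 5 StyI fragments of each block with the highest mean in HRS (logarithmic axis, zeros drawn at 0.01; HRS, Loop and input from left to right at each fragment). All 3 HRS libraries lie above all Loop and input libraries for each of the 10 fragments.

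Part of both blocks gave no counts at all. In block A 210 of 1129 fragments (18.6%) and in block B 186 of 762 (24.4%) had no count in any library, against 16.4% over the genome and 595 of 1441 (41.3%) in the segment between. These fragments covered 101.1 kb of block A and 74.4 kb of block B. Besides the 23.1 kb stretch named above, block A had an uncounted stretch of 15.0 kb with 24 fragments (21923774 to 21938727), which ended where the single counted fragment of the bin at 21930001 began. The longest in block B was 8.7 kb with 22 fragments (23730737 to 23739401). Histone genes of 1 family and tRNA genes of 1 type are near-identical copies, and how tags matching several places were treated is not given in the sources used here, so counts at such copies are uncertain. Whether the uncounted stretches are such copies was not tested.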

How the data were processed

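Libraries were made, per the labels' protocols, by ligating an adaptor with an MmeI site to StyI ends and cutting with MmeI, so each fragment is counted by short tags from its ends. The deposited values are whole-number counts per StyI fragment, with no normalization by the authors apparent. Per the submitters' processing notes CASAVA 1.8.2 and the build mm9 were used; the sources used here do not give the aligner or its treatment of repeated tags. All 9 tables listed the same 3053721 fragments after the last interval of each of 21 chromosomes was left out. No source states from which base coordinates count; bins start at 1. The 9 tables of counts per repeat name were not used.

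The blocks, the lists and the rule for named bins were chosen with earlier results of these data known. The named bins were the 5 highest and 3 lowest of each block by HRS over Loop and those at its limits; the named fragments were the 5 with the highest mean CPM in HRS. CPM values were scaled on library totals. Fragments were summed into 10 kb bins by midpoint and tested over the genome with edgeR 4.0.16 in R 4.3.3 (glmQLFit, glmQLFTest, TMM, filterByExpr with a minimum count of 10), using the libraries of the 2 groups compared. SE was taken from F, as the size of the log2 ratio over its square root. The length correction used 20 length classes; a bin's expected count, from the pooled counts and each library's share of the class, entered as an offset with TMM. On simulated counts the fits recovered 64%, 81% and 83% of 2-fold and 100% of 4-fold changes for HRS over Loop, HRS over input and Loop over input. Other settings were library totals, median-of-ratios factors, no filter on low counts, all 9 libraries, DESeq2 1.42.0, a stricter adjusted p of 0.01, 50 kb bins, bins shifted by 5 kb and each library left out.

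The replicate numbers were taken from the titles. Deviations from the group means of same-numbered HRS and Loop libraries correlated over all bins at 0.158, 0.108 and 0.232, each above the limit of 0.1, so the numbers were taken to pair them; HRS replicate 2 correlated at 0.126 with Loop replicate 1. Inputs carry no replicate number. The main fits left this pairing out, and it entered only as a replicate block in other settings for HRS over Loop.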

Additional observations from a re-analysis of the deposited data

How the results depend on the processing

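The 67 and 53 bins called higher in HRS than in Loop (blocks A and B) were 64 to 69 and 51 to 52 when 1 library was left out. At 50 kb they were 16 of 19 and 11 of 12 bins. Over the genome the same calls ran from 35394 of 246699 to 42679 of 246992 bins with 1 library left out, and were 11834 of 50555 at 50 kb. Those higher than input were 63 to 78 and 52 to 53, and 19 and 11 at 50 kb. Over the genome these ran from 23939 of 247302 to 41814 of 247549 bins, and were 11632 of 50574 at 50 kb. With the replicate number as a block, HRS over Loop gave 69 higher and 2 lower in block A and 53 higher in block B. Over the genome that fit called 50191 bins higher and 55939 lower of 245825. Without length correction the pairing moved no count of the blocks by over 1.5 times. The 2 lower bins of block A were 1 with an adjusted p of 0.01, median-of-ratios factors, shifted bins or DESeq2, 1 to 2 with 1 library left out, and 0 at 50 kb and with length corrected, with or without the replicate block. Loop against input depended on fragment length. In 10 kb bins with length corrected, 0 bins were higher and 4 lower in each block. The main fit had 15 higher and 26 lower in block A and 6 and 25 in block B. At 50 kb without that correction there were 3 higher and 6 lower in block A and 0 and 6 in block B. Over the genome 8224 of 50573 bins of 50 kb were higher and 8283 lower. In block B an adjusted p of 0.01 gave 14 lower bins, and leaving out 1 library 14 to 29. Over the genome these were 19971 of 246730 bins, and from 26102 of 247158 to 44647 of 247632.

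The log2 block ratios of HRS over Loop were 1.5 to 1.59 and 1.92 to 2.03 with 1 library left out. For fragments over 200 bp they were 2.12 and 2.51. Without the 10 fragments of each block with the most counts over all 9 libraries they were 1.41 and 1.84. With length corrected the ratio of block B was 1.83. For HRS over input the log2 block ratios were 1.55 and 1.86 with TMM and 1.57 and 1.87 with median-of-ratios factors. Without the same 10 fragments they were 1.28 and 1.57. Those of Loop over input were 0.01 and −0.12 with either set of factors and −0.02 and −0.08 with length corrected. For fragments over 200 bp they were −0.77 and −0.84. The genome moved with this limit too. Its length classes above 200 bp had log2 ratios of 0.29, 0.69 and 0.81 for HRS over Loop and −0.3, −0.83 and −0.91 for Loop over input. Called bins turned sign with length corrected at 3 values: 21560001 to 0.37 for HRS over Loop (0.37 with the replicate block too) and to −0.08 for Loop over input, and 23370001 to −0.29 for Loop over input; among bins not called, 8 further ratios turned, the largest at 23290001 (−0.45 for HRS over Loop, 0.23 for Loop over input).

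Settings for single fragments were added after seeing the data. With length corrected, HRS lay below Loop for 9 and 5 fragments, and Loop lay above input for 48 and 26 and below it for 111 and 80. With at least 100 counts Loop lay below input for 161 and 85. The genome's share was computed for the main setting only, so nothing is read from these counts. Over the named bins, 885 of the alternative values stayed on the same side of the threshold and 37 lost the call. Another 4 gained it and 4, of called bins, turned sign. The 885 include 26 values of bins not called whose sign turned. The cause of these changes was not tested beyond what each setting's construction shows. Depth limits bins under about 10 counts, and Loop counts of 0 to 3 bound ratios only by their counting interval.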
